A study of Mus musculus with 15 samples.

Results

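The intergenic HSF1 regions described here lie more than 50000 bp from any protein-coding gene of the mouse. They were taken from the latter of 2 wild type pairs of HSF1 ChIP-seq libraries made from brown adipose tissue (BAT) after 40 min of cold, called pair B here. Peaks of the 2 libraries on chromosomes 1 to 19, X and Y were merged where they overlapped by 1 bp or more, and 10367 of 16628 merged regions held a peak of both libraries. A region was kept when its midpoint lay in no protein-coding gene and more than 50000 bp from the nearest end of one, which left 1132 regions, or 10.9% of the 10367. They are called distal regions below. The other 9235 regions were 2707 within 1000 bp of a gene end (gene-end regions), 4373 elsewhere inside a gene (gene-body regions) and 2155 intergenic regions between 1000 and 50000 bp from a gene (near intergenic regions). The choice used peak calls of pair B and gene positions only, so calls in that pair are not findings.

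The tissue came from wild type (WT) mice and from TXNIP knockout (KO) mice, and HSF1 was precipitated with 1 antibody throughout. There were 10 HSF1 ChIP libraries in 5 groups of 2: WT at room temperature (RT), a WT pair at 40 min of cold (pair A), WT at 4 h of cold, another WT pair at 40 min of cold (pair B), and TXNIP KO at 40 min of cold. The labels give no age, sex or strain, do not say how the knockout was made, and do not say whether the libraries of a pair came from separate animals, so the spread between them may be technical. The peak lists hold no RNA measure, so neither the genotype nor the tissue label was checked. Genotype and treatment labels are the same for both 40 min WT pairs, and the titles of pair B add a suffix to the replicate number. Whether the pairs share animals or chromatin is not stated, so calls in pair A may not be independent of those in pair B. The lists of pair A hold 2287 and 1670 peaks, those of pair B 12644 and 14583. The RT lists hold 919 and 1269 peaks, the 4 h lists 123 and 351, and the KO lists 10399 and 10633. Read depth per library is unknown, since the lists hold no counts, and a longer list calls more of any set of regions. Each count of calls below is therefore read against the share of all 10367 regions called in the same list.

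HSF1 is the main transcription factor of the heat shock response. In unstressed cells much of it is held inactive by chaperones, and on stress it forms trimers that bind heat shock elements, which are inverted repeats of the unit nGAAn. Its best known targets are chaperone genes, many of which it binds at the promoter. Brown adipose tissue burns lipid to make heat in the cold, and TXNIP is an arrestin-like protein that binds thioredoxin and restrains glucose uptake. A transcription factor peak far from genes may mark an enhancer, but the nearest gene is a label of position and no evidence of a target.

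Sequence could be read at 54 of the 1132 distal regions, where they overlap a RefSeq promoter window (GRCm38.p6, 250 bases before to 50 after the gene start), and in 16 windows both summits of pair B lay inside the window. A heat shock element of 3 units (GAA and TTC in alternation with any 2 bases between neighbours, starting with either, which covers both strands) was in 2 of these 16 windows (12.5%). It was in 38 of 880 windows (4.32%) that held both summits of another region and in 198 of all 32817 windows (0.603%). A pair of units (GAANNTTC or TTCNNGAA, each its own reverse complement and each contained in the longer element) was in 9 of the 16 windows (56.2%), in 255 of the 880 (29%) and in 4940 of all windows (15.1%). In those 9 windows the centre of the nearest element lay a median 35.5 bp from the mean summit (range 2.5 to 79.5). These windows are a small and selected sample of the distal regions, and a match is a description of letters, not a bound site. The 5 windows below, each 300 bases on the strand of its gene, are picked examples and do not show the full range. They are 2 with a pair of units near a summit of high fold, both with 3 units, and 1 of the 7 without any match. Of the 9 with an element, 4 had it within 30 bp of the mean summit. The farthest, at 79.5 bp, was in the window of Gm33945, which is not shown and had folds of 33.8 and 37 in pair B. Capitals mark the elements.
Gm34507: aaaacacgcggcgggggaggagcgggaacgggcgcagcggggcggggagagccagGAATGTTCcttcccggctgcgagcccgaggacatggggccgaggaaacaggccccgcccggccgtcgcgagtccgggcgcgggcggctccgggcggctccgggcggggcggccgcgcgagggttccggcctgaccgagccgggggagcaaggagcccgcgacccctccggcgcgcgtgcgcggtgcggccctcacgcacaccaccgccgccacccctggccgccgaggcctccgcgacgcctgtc
3930402G23Rik: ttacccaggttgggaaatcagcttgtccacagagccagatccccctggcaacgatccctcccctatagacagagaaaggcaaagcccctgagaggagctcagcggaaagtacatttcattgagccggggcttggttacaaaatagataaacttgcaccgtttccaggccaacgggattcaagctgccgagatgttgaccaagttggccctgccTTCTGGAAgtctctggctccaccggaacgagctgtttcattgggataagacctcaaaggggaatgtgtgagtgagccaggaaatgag
4933433G08Rik: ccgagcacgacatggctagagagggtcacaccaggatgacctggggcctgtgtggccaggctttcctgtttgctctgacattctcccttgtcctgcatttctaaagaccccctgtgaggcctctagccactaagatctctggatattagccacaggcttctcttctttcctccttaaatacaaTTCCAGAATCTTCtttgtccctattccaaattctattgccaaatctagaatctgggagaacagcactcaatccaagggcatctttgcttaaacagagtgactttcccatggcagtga
Gm32605: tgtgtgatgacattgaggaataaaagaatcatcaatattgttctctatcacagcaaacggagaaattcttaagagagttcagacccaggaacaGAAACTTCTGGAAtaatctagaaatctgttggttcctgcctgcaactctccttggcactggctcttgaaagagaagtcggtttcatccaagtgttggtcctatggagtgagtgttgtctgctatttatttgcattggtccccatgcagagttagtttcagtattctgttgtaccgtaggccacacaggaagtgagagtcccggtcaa
Gm32287: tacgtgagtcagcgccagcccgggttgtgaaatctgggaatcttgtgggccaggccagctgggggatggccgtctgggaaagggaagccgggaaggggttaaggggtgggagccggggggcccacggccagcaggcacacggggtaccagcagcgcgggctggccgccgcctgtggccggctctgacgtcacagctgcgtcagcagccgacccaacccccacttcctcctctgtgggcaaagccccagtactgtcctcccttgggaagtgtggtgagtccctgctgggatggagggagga

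The Gm34507 window (chr17:4908072-4908371, plus strand) lies 86172 bp from the nearest protein-coding gene, between Nox3 and Arid1b. The centre of its element is 2.5 bp from the mean summit. Its region had a fold enrichment, the authors' ratio of peak signal to local background, of 35.8 and 38.2 in pair B and 29.3 and 27.7 in the KO pair. It was also called in both RT libraries (folds 8.58 and 7.03) and in both libraries of pair A (12.3 and 10.9), and in neither 4 h library. The 3930402G23Rik window (chr8:10928408-10928707, minus strand) lies between Myo16 and Irs2, 56853 bp from Irs2, which encodes an insulin receptor substrate. Its element is 13 bp from the summit, and its folds were 29.5 and 28.3 in pair B, 36.7 and 31.4 in KO, 5.51 and 4.75 in pair A, with no call at RT or 4 h. The window of 4933433G08Rik (chr9:61105337-61105636, minus strand, between Uaca and Tle3) holds 3 units, centred 22 bp from the mean summit. Its region was called in 3 lists, with folds of 12.9 and 6.41 in pair B and 4.54 in KO library 2. The window of Gm32605 (chr10:117899301-117899600, plus strand, between Rap1b and Mdm1) also holds 3 units, centred 55.5 bp from the mean summit. The folds of its region were 7.57 and 8.4 in pair B, then 9.34 and 8.1 in KO. The window of Gm32287 (chr2:167777365-167777664, minus strand, between Cebpb and Ptpn1) holds none of these letters, yet its region had folds of 18.2 and 17 in pair B and 20.9 and 18.2 in KO.

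The distal region of highest fold lay between Edn3, which encodes an endothelin peptide, and Gm14444 (chr2:174857716-174860298, 74965 bp from Edn3). Its folds were 49.4 and 55.3 at RT, 85.1 and 69.9 in pair A, 9.19 and 33.6 at 4 h, 319 and 284 in pair B and 236 and 227 in KO. It stood among the 30 highest folds of each list's regions, at rank 20 or 23 at RT, 26 or 27 in pair A, 10 or 30 at 4 h, 21 or 29 in pair B and 28 or 29 in KO. The region between Dio3, a deiodinase that inactivates thyroid hormone, and Ppp2r5c (chr12:110372547-110374670) had folds of 20.5 and 25.8 at RT, 53.6 and 43.4 in pair A, 161 and 163 in pair B and 130 and 142 in KO. At 4 h it was called in library 2 only, with a fold of 10.5. The region between Med13l and Tbx3, a T-box transcription factor (chr5:119054913-119059499), had folds of 10.7 and 13.3 at RT, 38.4 and 27.8 in pair A, 139 and 137 in pair B and 117 and 93.6 in KO. At 4 h it had a call of 6.84 in library 2. A fold also depends on depth and input, so folds of separate lists stand side by side as a description, and no difference between their levels is drawn from them.

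The region between Cebpb, a transcription factor of adipocyte differentiation, and the phosphatase gene Ptpn1 (chr2:167780635-167782544, 91157 bp from Cebpb) had folds of 16.9 and 21.9 at RT, 33.3 and 29.5 in pair A, 9.27 in 4 h library 2, 136 and 124 in pair B and 121 and 111 in KO. The region between Fam110c and the laminin gene Lamb1 (chr12:31168285-31171466) was called in all 10 lists, with folds of 10 and 11.1 at RT, 28 and 22.2 in pair A, 8.96 and 15 at 4 h, 120 and 119 in pair B and 106 and 89.9 in KO. The region between Eea1 and Btg1, an antiproliferative gene induced early by many signals (chr10:96493253-96495477), had folds of 6.67 and 9.76 at RT, 17.1 and 17.2 in pair A, 5.97 and 16.4 at 4 h, 105 and 99.7 in pair B and 52.3 and 47.4 in KO. It ranked 126 and 147 in pair B and 327 and 363 in KO, the largest gap in rank between those pairs among the 10 leading regions. The other 4 of the 10 lay between Cxcl12, a chemokine gene, and Zfp637 (chr6:117777855-117779560), between Klf14 and Mkln1 (chr6:31078120-31079838), between Rpl14 and Ctnnb1, the gene of β-catenin (chr9:120660721-120662468), and between Prickle1 and Adamts20 (chr15:93713067-93714406). Their folds were 90.1 to 122 in pair B, 70.5 to 90.1 in KO, 11.7 to 23.8 at RT and 18.4 to 35.1 in pair A. All 10 leading regions were called in both RT, both pair A and both KO libraries, where 7.64%, 14.1% and 69.1% of all regions were.

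**Figure D1:**
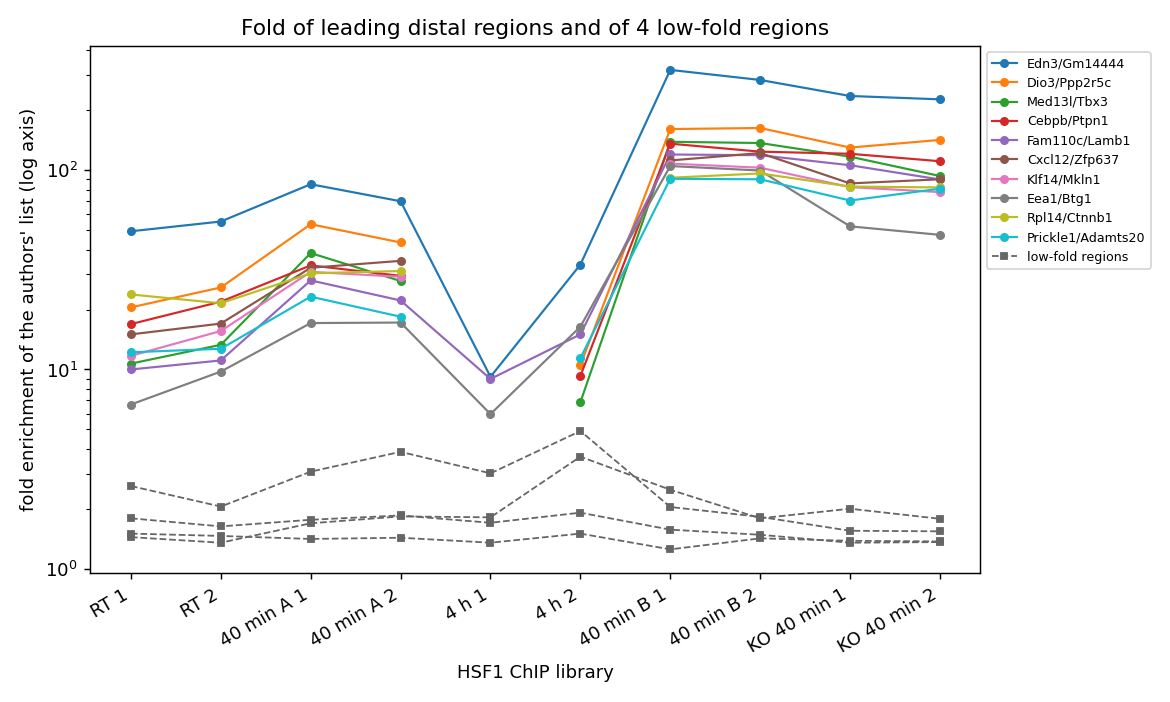
Fold enrichment in each of the 10 HSF1 ChIP lists (log axis) for the 10 distal regions of highest fold, named by their flanking genes, and for the 4 low-fold regions called in every list (grey squares); A and B are the 40 min wild type pairs and a missing point is a list without a call. Of the regions drawn, Edn3/Gm14444 is the highest in each library, from 9.19 at 4 h to 319, and the grey regions stay between 1.25 and 4.91.

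Strong distal regions were as frequent as strong regions elsewhere up to a moderate fold and less so at the top. A lower fold of pair B of 20 or more was found in 144 distal regions (12.7%) and in 12.6% of the others, of 50 or more in 32 (2.83% against 4.2%) and of 100 or more in 7 (0.618% against 1.35%). The folds of pair B are given as a description. The median fold of distal regions was 6.77 and 7.20 in pair B, against 5.20 and 5.30 for gene-end regions. It was 7.01 and 7.55 for near intergenic and 6.57 and 6.86 for gene-body regions, so the gene-end regions stood apart, not the distal ones. In the RT lists the medians were 6.68 and 6.13 for called distal regions and 7.87 and 7.55 for called gene-end regions. Called near intergenic regions had 7.87 and 6.97 there, and called gene-body regions 6.74 and 6.44.

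A group of 5 distal regions had a fold under 3 in both lists of pair B, and 4 of these 5 were called in all 10 lists, as were 0.916% of all regions. None of the 27 other regions with so low a fold was called in all 10. The first of the 4 lies between Lrrc4c and Iftap (chr2:98666275-98667274), with folds of 1.54 to 4.91 over the 10 lists and −log10 p-values as high as 487.5 in pair B. A pair of them lies between Gm41099 and Gm2244 (chr14:19415862-19416827 and chr14:19417331-19418182), with folds between 1.25 and 1.91 in every list. The last spans 5764 bp between Esp15 and Esp38 (chr17:39843034-39848797), within 1000 bp of an end of Rn18s-rs5, an 18S ribosomal RNA related sequence, with folds from 1.35 to 3.65. These 4 regions stand apart from the other 1128, and results that rest on them are given with and without them.

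Distal regions were called in the other 8 libraries at shares close to those of all regions. At RT 96 distal regions (8.48%) were called in library 1 and 131 (11.57%) in library 2, against 8.58% and 11.9% of all regions. In pair A 240 (21.2%) and 177 (15.64%) were called, against 21.4% and 15.6%. At 4 h the counts were 12 (1.06%) and 35 (3.09%), against 1.05% and 3.29%. In KO 863 (76.24%) were called in each library, against 77.8% and 78.4%. Calls in both libraries of a pair numbered 83 at RT (7.33%; all regions 7.64%), 163 in pair A (14.4%; all regions 14.1%), 11 at 4 h (0.972%; all regions 1%) and 752 in KO (66.4%; all regions 69.1%). In all, 156 distal regions were called in no list but those of pair B (13.78%, all regions 12.83%). Calls in exactly 4 lists were found at 480 (42.4%, all regions 45.34%) and in all 10 at 11 (0.972%, all regions 0.916%). Of these 11, 4 were the low-fold regions, so 7 distal regions were called in both 4 h libraries without them.

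**Figure D2:**
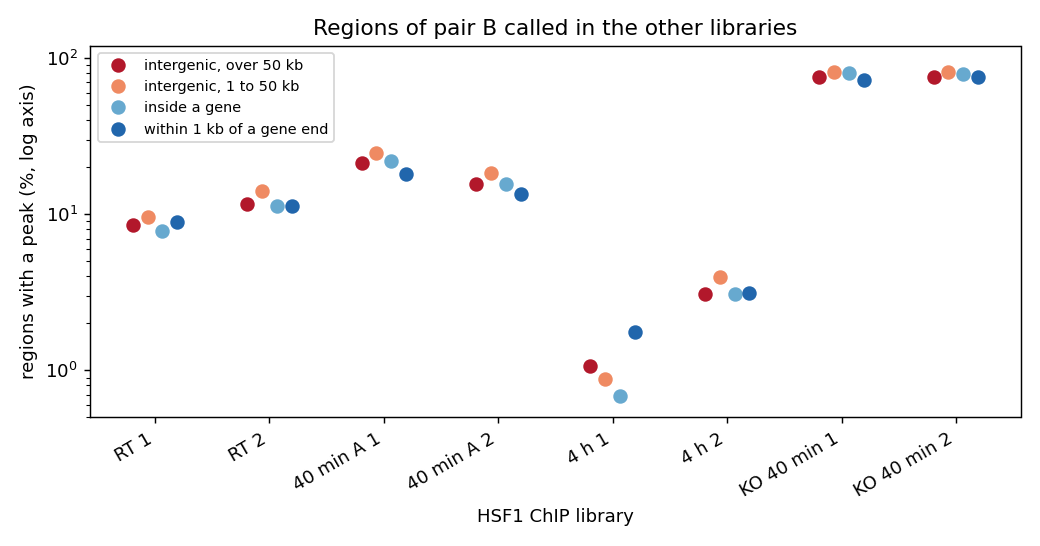
Percent of regions with a peak (log axis) in each of the 8 libraries not used to choose the regions, for the 4 classes by position; A is pair A. Distal regions (dark red) run from 1.06% at 4 h to 76.24% in the knockout, and lie below the near intergenic regions (orange) in 7 of 8 libraries.

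The within-library difference in the share called was small. Distal regions were called less often than all other regions in 7 of 8 libraries, with a mean difference of −0.639 percentage points (SD 0.919, n = 8 libraries; two-sided exact sign-flip permutation test, p = 0.0234, adjusted p = 0.0469 by Benjamini-Hochberg over 4 comparisons). All 8 libraries were scored on the same regions, so this p-value and those below measure agreement among lists on 1 set of regions. They do not measure how far the classes would differ in another set. The libraries of a pair may not be independent either. With the mean of each of the 4 groups as 1 unit, the difference was negative in 4 of 4. The exact permutation p was then 0.125, the smallest that 4 groups allow. In 1 of the 7, library 2 of pair A, the difference was only −0.000124 points, and the largest were −1.76 and −2.41 in the KO libraries. The call was lost with the regions of 1 list alone, where the difference was −0.604 (exact sign-flip permutation p = 0.25) without library 1 of pair B and −0.201 (exact p = 0.578) without library 2. With a limit of 25000 bp it was 0.239 (exact permutation p = 0.234) and with 100000 bp −1.01 (exact permutation p = 0.156). Without the 4 low-fold regions it was −0.899 and negative in 8 of 8 libraries (exact sign-flip permutation p = 0.00781, adjusted p = 0.0156). That p is the smallest that 8 libraries allow. The 4 regions are distal and were picked for a call in every list, so leaving them out lowers the distal share in each library by construction. This result therefore adds no support for the difference.

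Compared with near intergenic regions, distal regions were called less often in 7 of 8 libraries (mean difference −2.64 percentage points, SD 1.97; exact sign-flip permutation p = 0.0156, adjusted p = 0.0469), the exception being 4 h library 1 at 0.178. The differences were −5.02 and −5.34 in KO, −3.62 and −2.79 in pair A and −1.17 and −2.44 at RT. Without the 4 low-fold regions this difference was −2.9 and negative in 8 of 8 libraries (exact permutation p = 0.00781, adjusted p = 0.0156). Leaving them out again lowers the distal share in each library by construction, so this adds no support. With group means as units and all regions kept, the difference was negative in 4 of 4 groups (exact permutation p = 0.125). The differences from gene-body regions (−0.732, SD 1.62, adjusted p = 0.383 by the exact permutation test) and from gene-end regions (1.1, SD 1.79, adjusted p = 0.24 by the same test) did not pass.

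The position of distal regions in the order of folds within each list depended on the 4 low-fold regions. Over the 8 lists not used in the choice, the median percentile of called distal regions lay below that of near intergenic regions by −8.47 percentile points (SD 8.28, 7 of 8 lists lower and 1 equal; adjusted p = 0.0312, exact sign-flip permutation) and below that of gene-body regions by −3.74 (SD 3.96, 7 of 8 lower; adjusted p = 0.0312, exact permutation). Both calls were lost without the 4 regions, where the differences were −2.44 and 2.38 (adjusted p = 0.562 and 0.844, exact permutation). With group means as units neither passed (exact permutation p = 0.125 each, 4 of 4 groups lower). Against all other regions the mean difference was −7.56 (SD 9.06, 6 of 8 lists lower; exact permutation p = 0.0469, adjusted p = 0.0625) and did not pass after adjustment, and it was −1.53 (SD 6.44, exact permutation p = 0.508) without the 4 regions. Over all 10 lists, which include the pair that chose the regions, it was −5.04 (SD 9.59, exact permutation p = 0.148) with them and −0.215 without. Against gene-end regions it was −12.5 (SD 19.1, adjusted p = 0.102, exact permutation) over the 8 lists.

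Whether a distal region was called outside pair B followed its fold in that pair. In the top fold quartile of all 10367 regions, by the lower of the pair's folds (10.8 or more), there were 298 distal regions. Of these, 79 were called in both RT libraries (26.5%), 155 in both libraries of pair A (52%), 7 in both 4 h libraries (2.35%) and 293 in both KO libraries (98.3%), against 30.7%, 55.3%, 4% and 99.5% of the other regions in that quartile. In the next quartile (5.77 to 10.8) the counts among 311 distal regions were 0, 4, 0 and 248. The shares of the other regions there were 0.132%, 1.14%, 0% and 89.1%, and the 248 in KO were 79.7% of the distal regions. In the quartile below that, 147 of 304 distal regions (48.4%) were called in both KO libraries, against 56.7% of the others. In the lowest quartile (4.11 or less), 64 of 219 distal regions were called in both KO libraries (29.2%; 32.1% of the others), and the 4 called in both libraries of each WT group were the low-fold regions. At a lower fold of 50 or more, all 32 distal regions were called in both libraries of pair A and both KO libraries, 31 in both RT libraries and 7 in both 4 h libraries. Calls at the 388 other regions of such fold were not counted, so this is not read as a trait of distal regions.

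**Figure D3:**
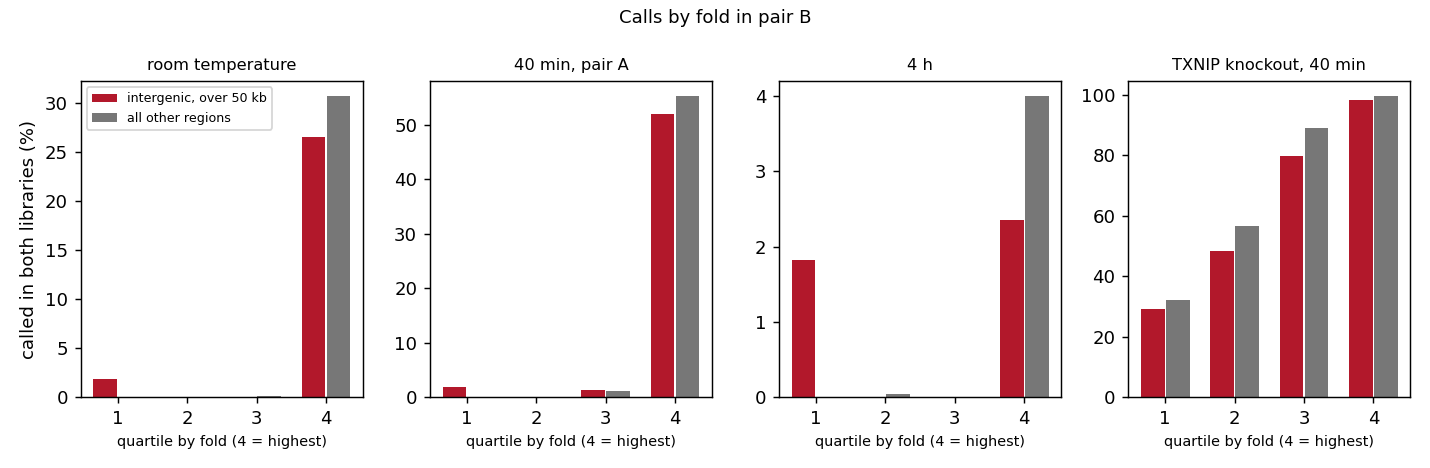
Percent of regions called in both libraries of a group (each panel has its own vertical scale), by quartile of the lower fold in pair B, for distal regions (red) and all other regions (grey). Calls at room temperature, in pair A and at 4 h sit mostly in the highest quartile; the distal exceptions are 4 regions of the third quartile in pair A and the 4 low-fold regions in the lowest, while knockout calls rise from 29.2% to 98.3%.

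Among the WT groups, more distal regions were called in pair A than at RT, and fewer at 4 h. Of the distal regions, 57 (5.04%) were called in both libraries of pair A and in neither RT library, and 2 the other way, against 3.86% and 0.0482% of all regions. Of the 83 distal regions called in both RT libraries, 57 (68.7%) were called in neither 4 h library, 26 in at least 1 and 11 in both. Of the 709 other regions called in both RT libraries, 64.9% were called in neither 4 h library, (65.3% over all regions called in both RT libraries), and no distal region was called in both 4 h libraries and neither RT library (0.0289% of all regions). Each longer list was also cut to its 919 strongest peaks by −log10 p. The distal regions called in both libraries then numbered 73 at RT (6.45%), 81 in pair A (7.16%) and 79 in KO (6.98%). The 4 h lists are shorter than 919 peaks and were not cut, and their count stayed at 11. Calls at all regions were not counted under this cut, so these counts are not read as a trait of distal regions. With 2 libraries against 2 the smallest two-sided exact p is 0.33, so no difference was tested. In bulk tissue, a site bound in fewer cells and a site bound less in each cell cannot be told apart.

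The order of folds was compared at the distal regions called in all 4 libraries of RT and pair A, 75 in number. The percentile of each was taken among the 749 regions of any class called in all 4, not among all calls of a list. A region counted as higher or lower when both libraries of one group lay beyond both of the other, which 20 did upwards (26.7%; all such regions 25.9%) and 22 downwards (29.3%; all 26.3%). The largest rise was at the 10-list region between Trib1, a pseudokinase gene, and 4933412E24Rik (chr15:59732958-59734569), from percentiles 34.5 and 54.1 at RT to 75.6 and 79.6, with folds of 6.67 and 9.37 at RT and 23 and 21.2 at 40 min. A pair of regions between Cd83 and Jarid2, a subunit of the Polycomb complex PRC2, was also among the 10 largest rises, with percentiles of 24.2 and 27.7 against 61.2 and 47.7 at chr13:44228250-44229644. The largest drop was between Pik3r1, the regulatory subunit of PI3-kinase, and Cd180 (chr13:102113724-102114895), from percentiles 46.7 and 70.2 to 12.8 and 9.28. Its folds were 7.63 and 11.7 at RT and 7.97 and 6.4 at 40 min. The next drops were at Ccnd1/Tpcn2 (70.2 and 54.1 to 7.14 and 26.1) and Jun/Fggy (62.1 and 33.7 to 11.1 and 9.28).

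Apart from the low-fold regions, the distal regions called in both 4 h libraries were those between Edn3 and Gm14444, Irf2bp2 and Tomm20, Eea1 and Btg1, Fam110c and Lamb1, Gmds and Mylk4, Osmr and Lifr, and at Trib1. Each of these 7 was called in all 10 lists. The Osmr/Lifr region (chr15:7010254-7011952), beside genes of cytokine receptors of the interleukin-6 family, had folds of 10.3 and 13.9 at RT, 19.6 and 16.1 in pair A, 8.27 and 17.5 at 4 h, 89.2 and 72.1 in pair B and 62 and 76.6 in KO. The Irf2bp2/Tomm20 region (chr8:126700566-126702942) had 6.14 and 7.93 at RT, 15 and 13.9 in pair A, 5.5 and 8.5 at 4 h, 67.9 and 70.3 in pair B and 38.9 and 39.2 in KO. The Gmds/Mylk4 region (chr13:32492125-32494095), near the noncoding gene Gm40876, had 9.54 and 12.1 at RT, 13.3 and 14.4 in pair A, 5.28 and 9.28 at 4 h, 71.9 and 55.9 in pair B and 41 and 40.1 in KO. Percentile order against RT was taken among the 95 regions called in all 4 libraries of RT and 4 h. In it, 5 of the 11 distal regions in both 4 h lists were higher (45.5%, all regions 29.5%) and 3 lower (27.3%, all 40%). The rise at Fam110c/Lamb1 was the largest (29.5 and 20 to 67.9 and 58.4). Among all regions called in each list, that region ranked 250 of 890 and 248 of 1236 at RT. At 4 h it ranked 33 of 109 and 43 of 341, so the rise depends on the regions ranked. Without the 4 low-fold regions, and with the order taken anew, 4 of 7 were higher (all regions 29.7%) and 1 of 7 lower (all 39.6%). Counts of this size allow no comparison with the other regions.

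In the TXNIP KO libraries most distal regions of pair B were called again. Of the 1132, 752 were called in both KO libraries, 222 in 1 and 158 (14.0%; all regions 12.9%) in neither. Every distal region is called in pair B by the choice of regions, so a call could only be lost. With the 166 distal regions of pair A as control, 0 were called in neither KO library. The 158 had median folds of 4.38 and 4.46 in pair B, against 9.36 and 9.9 for the 752, and their highest lower fold was 12.2. None of the 158 was called at RT or at 4 h, and 2 had a call in pair A. The 1177 other regions without a KO call were alike, with median folds of 4.18 and 4.12 and a highest lower fold of 11.9. None of them was called at RT or at 4 h, and 3 had a call in pair A. Leaving out library 1 or library 2 of pair B also enlarged the set, to 1579 and 1350 distal regions. Of these, 468 (29.6%) and 310 (23%) had no KO call. Shares over all regions were not counted for these sets. Leaving out either KO library gave 269 (23.8%), with 77.8% of all regions called in KO library 1 and 78.4% in library 2.

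The distal region of highest fold among the 158 lay between Csnk1g3 and Zfp608 (chr18:54097835-54098435), with folds of 13.7 and 12.2 in pair B and 5.56 in library 1 of pair A. The second, between Celf4 and Pik3c3 (chr18:28426864-28428120), had 10.6 and 24.7, which is the widest gap between the libraries of the pair among the 10 of highest fold. The others of the 10 lay between Rap1b and Mdm1 (10.4 and 8.06), Klf7 and Creb1 (7.96 and 15.8), Zc3h12a and Grik3 (8.16 and 7.55), 4930564D02Rik and Kcnd3 (7.37 and 8.05), Nufip1 and Tsc22d1 (6.97 and 7.89), Ebf2 and Cdca2 (8.76 and 6.86), Cdh26 and 4930591A17Rik (6.77 and 7.89), and Irs2 and Col4a1 (9.76 and 6.69). Of the 10, 9 were called in no list but those of pair B.

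For the 752 distal regions called in both KO libraries, percentile order was taken among the 7160 regions of any class so called. It was higher in both KO libraries than in both of pair B at 140 (18.6%, all regions 23.6%). It was lower in both at 200 (26.6%, all regions 21.9%). At the 6408 other regions it was higher at 1550 (24.2%) and lower at 1368 (21.3%). All regions were chosen by calls in pair B, so these shares are a description, with no test. The KO peak had its summit outside the distal region in 3 cases in library 1 and 6 in library 2. Without regions of that kind in either KO library, the order was higher at 138 of 749 and lower at 199.

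The largest drop in order lay between Adamts5, a protease of the extracellular matrix, and N6amt1 (chr16:87278117-87279018). Its folds were 24.1 and 21.8 in pair B and 4.77 and 6.52 in KO, with percentiles from 84.2 and 81 to 16.6 and 41.3. The next drop was between Opa1 and Hes1, a target of Notch signalling (folds 9.95 and 12.9 in pair B and 3.78 and 4.25 in KO). After it came a region between Klf4 and Actl7b (chr4:56503413-56504363), with 13.3 and 15.1 in pair B and 4.41 and 5.2 in KO. Of the rises, the largest with a KO summit inside the region was between Cebpb and Ptpn1 (chr2:167759569-167760317). Its folds were 4.62 and 7.36 in pair B and 11.2 and 15.6 in KO, with percentiles from 13.8 and 38.1 to 65.7 and 78.2. In each of these 4 regions pair B and the KO pair did not overlap. They were the extremes of 752 and were picked by that difference.

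**Figure D4:**
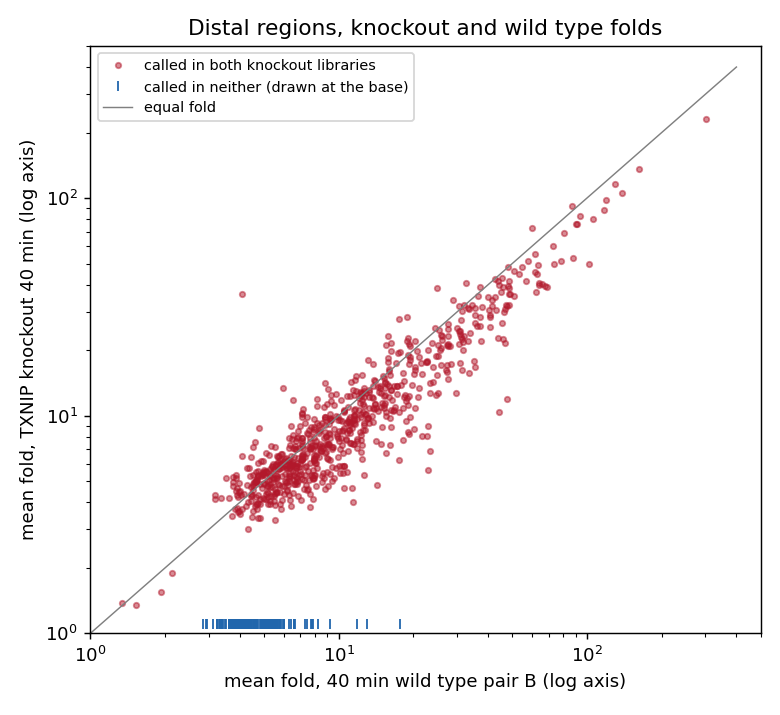
Mean fold of the 2 TXNIP knockout libraries against the mean fold of pair B (both log axes) for the distal regions called in both knockout libraries (red), with the 158 called in neither drawn as ticks on the base line. The line of equal fold is a guide to the eye only, since the lists differ in depth and input; the ticks sit at low wild type folds; the lone point far above the line is a region between Ly86 and Rreb1 whose knockout summit lies outside it.

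Distal regions often shared a stretch between genes. They lay in 466 intervals between neighbouring protein-coding genes, and 253 intervals held 1 each, while 67 intervals with 5 or more held 505 of the 1132. The stretch between Fam43a and Xxylt1 on chromosome 16 held 19, that between Cd83 and Jarid2 on chromosome 13 held 17, that between Cebpb and Ptpn1 on chromosome 2 held 16, and those between Klf4 and Actl7b and between Irf2bp2 and Tomm20 held 14 each; these 5 were named after their counts were seen. Regions of 1 interval share their surroundings and are not replicates.

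Within the Cebpb/Ptpn1 interval, which spans 240317 bp, 1 region dominated. Its lower fold in pair B was 124, while the median of the 16 was 7.7 and the lowest 2.74. In KO 14 of the 16 were called in both libraries and 1 in neither, where 69.1% and 12.9% of all regions were. At chr2:167755090-167756395 the folds were 27.9 and 22 in pair B and 45.2 and 32 in KO, and 7.73 and 8.63 in pair A, with no call at RT. In the Cd83/Jarid2 interval 4 of 17 regions were called in 8 or more lists. Of all regions, 4.919%, 1.775% and 0.916% were called in exactly 8, 9 and 10 lists. In that interval 5 were called in pair B alone (12.83% of all regions) and so in neither KO library. There the region at chr13:44235691-44236794 had folds of 49.1 and 46.2 in pair B, 12.3 and 9.74 in pair A and 11 and 12.8 in KO. Its neighbour at chr13:44228250-44229644 had 61.1 and 70.3 in pair B, 16.9 and 12.2 in pair A and 40.2 and 40.7 in KO. Both neighbours were called at RT, with folds of 5.24 and 7.81 and of 6.04 and 6.87. In the Fam43a/Xxylt1 interval the strongest region (chr16:30795160-30796302) had folds of 7.39 and 9.18 at RT, 15.9 and 14.5 in pair A, 60.3 and 62.8 in pair B and 54.6 and 37.3 in KO. Of the 19 regions of that interval, 12 were called in both KO libraries, where 69.1% of all regions were. Neighbouring distal regions of 1 interval thus ranged from calls in pair B alone to calls in 8 or more lists.

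Nearest genes were counted over lists of genes. Adipocyte transcription factors were the nearest gene of 42 distal regions (3.71%), at 9 of 33 listed genes, against 1.12% of the other regions. Of the 42, 29 were called in both KO libraries (752 of 1132 over all distal regions), 8 in both libraries of pair A and 2 in both RT libraries, where 69.1%, 14.1% and 7.64% of all regions were. Besides Cebpb they included Ebf1, a factor of adipocyte and B cell differentiation, with folds of 56.9 and 66.2 in pair B and 57.7 and 53.5 in KO (chr11:45203446-45205002), and Klf4, with 25.9 and 29.2 and then 21 and 21.9 (chr4:55661737-55662806). Insulin and growth factor signalling genes were nearest at 37 distal regions (3.27%; other regions 0.541%), and 31 of these were called in both KO libraries, 9 in both of pair A and 5 at RT. Examples beside Lifr are Fgfr2, a fibroblast growth factor receptor (47.8 and 42.8 in pair B, 42.1 and 43.4 in KO), and Vegfa, the main angiogenic growth factor (34.2 and 39.9, then 41.9 and 36.3). Immediate early genes, which respond to signals without new protein synthesis, were nearest at 27 (2.39%; other regions 0.65%), and 19 of these were called in both KO libraries, 3 in both of pair A and 3 at RT. They included Btg1, the region given above, and Jun, a subunit of AP-1 (53.4 and 66.9 in pair B, 86.7 and 59.1 in KO, 9.44 and 9.84 at RT). A gene with no coding neighbour for a long way is nearest to more of such territory, so these shares were not tested and are no measure of preference.

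Genes best known for the tissue and the factor were the nearest gene of few distal regions. Heat shock chaperones and co-chaperones were nearest at 1 distal region (0.0883%; other regions 0.509%), at Dnajb6, with folds of 8.36 and 10.5 in pair B and 6.03 and 5.57 in KO. Thermogenic genes were nearest at 6 (0.53%; other regions 0.693%), none of them called in both libraries of any WT group outside pair B. At Dio2, the deiodinase that activates thyroid hormone, the folds were 7.57 and 10.1 in pair B and 10.8 and 8.89 in KO, and at Ppargc1a, the coactivator of mitochondrial biogenesis, 5.18 and 4.29 in pair B and 3.74 in KO library 1 alone. General adipocyte and lipid genes were nearest at 2 (Gpam and Fabp5; 0.177%, other regions 0.726%), genes of the cAMP response at 1 (Pde3b; 0.0883%, other regions 0.541%) and clock genes at 0 (other regions 0.368%). Genes of TXNIP, thioredoxins and arrestins were nearest at 1 (0.0883%; other regions 0.152%), Arrdc3 (6.37 and 7.89 in pair B, 8.71 and 7.11 in KO). Of the marker lists for other cells of the tissue, endothelial genes were nearest at 5 (0.442%; other regions 0.325%), leukocyte genes at 2 (0.177%; other regions 0%) and fibroblast and preadipocyte genes at 2 (0.177%; other regions 0.0758%). Skeletal muscle, neuronal and glial, and olfactory receptor genes were nearest at 0, against 0.0541%, 0.0758% and 0% of the other regions. The nearest gene carried an HSF1 region at one of its own ends for 373 distal regions (33%) and for 31.6% of near intergenic regions. Counting each nearest gene once, these were 149 of 572 genes (26%) and 28.8%, while 3052 of 21887 protein-coding genes (13.9%) had one.

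The distance to the nearest protein-coding gene ranged from 50023 to 1838123 bp with a median of 110579, and 513 regions lay within 100000 bp, 392 between 100000 and 200000, 199 between 200000 and 500000, 25 up to 1000000 and 3 beyond. Over the first 3 of these bins the share called went from 78.8% to 75.4% in KO library 1 and from 8.19% to 10.1% in RT library 1, and was 0.78%, 1.79% and 0% in 4 h library 1. In the bin of 25 regions it was 64% and 60% in the KO libraries and 0% in RT library 1. The 5 farthest lay at Celf4/Pik3c3 (1838123 bp), Flrt2/Galc (1045445 bp, folds 4.18 and 4.46 and no other call), Lrrc4c/Iftap (1035102 bp, a low-fold region), Myc/Gsdmc (881207 bp, 4.98 and 5.87 in pair B and 6.64 and 5.33 in KO) and Zeb2/Acvr2a (742829 bp). The last had folds of 34.6 and 28.6 in pair B, 20.4 and 19.7 in KO and 6.77 and 8.63 in pair A. The 3 nearest inside the limit lay at 50023 (Gpc5; 4.58 and 3.94), 50125 (Trib1; 12.1 and 13.2) and 50192 bp (Cebpb; 3.78 and 3.94), and the 3 nearest outside it at 49807 (Phyhipl; 22.4 and 18.1), 49779 (Olfr987; 8.56 and 8.4) and 49691 bp (Zfp831; 4.51 and 5.4).

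**Figure D5:**
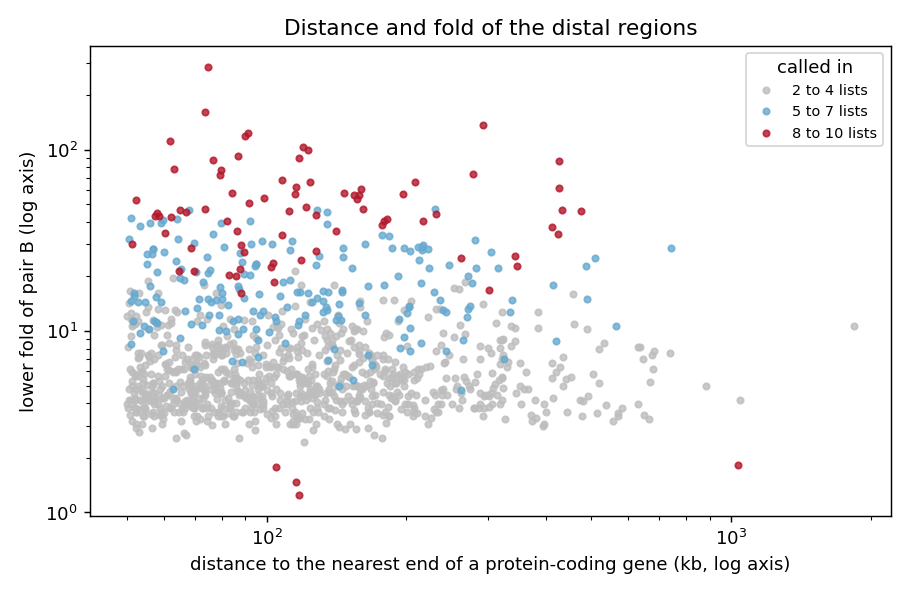
Lower fold of pair B against the distance to the nearest end of a protein-coding gene for the 1132 distal regions (both log axes), coloured by the number of lists with a call. Folds show no visible trend with distance, and regions called in 8 to 10 lists (red) are those of high fold, apart from the 4 low-fold regions at the bottom.

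Distance here refers to protein-coding genes, and many distal regions lay near noncoding ones. When noncoding genes and pseudogenes were counted as genes, 965 of the 1132 (85.2%) had a gene of some kind within 50000 bp and 167 did not. A distal region lay inside a noncoding gene in 309 cases (27.3%; other regions 11.5%) and within 1000 bp of an end of one in 110 (9.72%; other regions 9.63%), of which 101 were long noncoding RNA genes and 0 were miRNA genes. The territory more than 50000 bp from protein-coding genes covers 1006 Mb, or 37.4% of the span between the first and last genes of the chromosomes, so distal regions were sparse, at 1.13 per Mb against 3.49 for near intergenic, 4.42 for gene-body and 34.2 for gene-end regions. Chromosome 13 held 112 distal regions (25.3% of its 443 regions and 2.5 per Mb of such territory). Chromosome 19 held 10 of 335 (2.99%), and over all chromosomes the share was 10.92%. Chromosome X held 15 (0.192 per Mb), but these were 13.4% of its 112 regions of any class. Chromosome Y held 0 regions of any class. The low counts on X and Y are therefore not read as a trait of distal regions.

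The median width of distal regions was 756 bp (other regions 804), and the summits of the 2 lists of pair B lay a median 32.5 bp apart (other regions 37), within 50 bp of each other in 65.4% (other regions 60.6%). Across the 1132 regions Pearson's r between the log2 folds of the pair was 0.942 (other regions 0.961), a correlation over regions of the same 2 libraries. In RT library 1 the summit of a called distal region lay a median 14 bp from the nearer pair B summit, and in KO library 1 a median 18 bp, with 93.8% and 91.7% within 100 bp. In 4 h library 2 it lay a median 23 bp away, with 82.9% of the 35 called distal regions within 100 bp (other regions 92.8%). Another region lay within 25000 bp of 584 distal regions (51.6%; other regions 56.4%).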

How the data were processed

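HSF1 was measured by ChIP-seq in 10 libraries of mouse BAT, with 15 samples in all; no file of the 5 inputs was used here, and 1 input with conflicting labels was put in no group. Tissue was fixed with DSG and formaldehyde, per the labels' protocols. The submitters' processing notes name MACS2 2.2.7.1, Trim Galore 0.6.0, deepTools 3.4.3, SAMtools and BWA 0.7.17, and the build GRCm38.p6 (mm10). Filtering steps, and the input behind each list, are not stated there. For each library the authors deposited a narrow peak list, with a fold (a linear ratio), −log10 p and −log10 q values, a score that was not used and a summit position. The folds are the authors' own; they were used to rank peaks inside 1 list and are set side by side across lists as a description.

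Peaks were merged with pandas 2.3.3 and numpy 2.4.6 (Python 3.11.15), and a region was called in a list that had a peak overlapping it by 1 bp or more, with the highest fold taken. Positions of 21887 protein-coding genes, noncoding genes and promoter sequences came from RefSeq GRCm38.p6; strand was missing from the gene table, so both ends of a gene were treated alike. Within-library differences between classes were tested by exact two-sided sign flips over 8 or 10 libraries, checked on simulated data, and over the 4 group means, an addition made after seeing the data. For percentiles the design set both 8 and 10 lists; the choice to lead with the 8 was made with both values known. The search for elements around all summits, set in the design, was replaced by promoter windows because no genome was used here. Gene lists numbered 15, with 328 of 329 entries matched: chaperones, thermogenic genes, adipocyte factors, lipid genes, insulin and growth factor genes, immediate early genes, cAMP genes, clock genes, TXNIP-related genes and markers of 6 other cell types. Regions were named by rank of the worse fold in a group (10 per rule), by calls in all lists, by distance (the 5 farthest and 3 on each side of the limit) and by nearest gene. The regions and the lists were chosen with earlier results of these data known. Alternatives covered the distance limit, gene set, overlap, peak threshold, list length, region position, ranking measure, control pair and each library left out.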

Additional observations from a re-analysis of the deposited data

How the results depend on the processing

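Alternatives are set beside 1132 distal regions. Of these, 83 (RT), 163 (pair A), 11 (4 h) and 752 (KO) were called in both libraries and 158 in neither KO library. The distance limit and the gene set leave the 10367 regions unchanged. Of all regions, 7.64%, 14.1%, 1% and 69.1% were called in both libraries of RT, pair A, 4 h and KO, and 12.9% in neither KO library. With a limit of 100000 bp there were 619 distal regions. Of these, 48 (7.75%), 89 (14.4%), 7 (1.13%) and 399 (64.5%) were called in both libraries of RT, pair A, 4 h and KO. In neither KO library were 96 called (15.5%). With 25000 bp there were 1709, with 128 (7.49%), 250 (14.6%) and 1173 (68.6%) at RT, pair A and KO. With noncoding genes counted there were 167, with 10 (5.99%), 20 (12%), 1 (0.599%) and 107 (64.1%), and 24 (14.4%) in neither KO library. The percentile difference from all other regions then turned from −7.56 to 1.54 (exact permutation p = 0.688) over the 8 lists not used in the choice. Over all 10, which include pair B, it turned from −5.04 to 2.04 (exact permutation p = 0.498). It also turned with −log10 p as the ranking measure, to 1.07 (8 lists; p = 0.812, exact permutation) and 1.91 (10 lists; p = 0.453, exact). Over the 8 lists the unadjusted call was lost at 25000 bp (−7.52, exact p = 0.0625), without regions under fold 3 (−1.75, exact p = 0.445), without the 4 low-fold regions (−1.53, exact p = 0.508) and with group means as units (−7.56, exact p = 0.25). It was also lost without any 1 of the RT, pair A or 4 h libraries (exact p = 0.0625 to 0.0938) and without library 1 of pair B (exact p = 0.0547). It stayed without library 2 of pair B (exact p = 0.0391) and without either KO library (exact p = 0.0469 and 0.0312). Over all 10 it passed at −5.48 (p = 0.0391, exact) with peaks of −log10 q of 5 or more and at −12.6 (p = 0.00195, exact) with lists of equal length. Lists of equal length also gave 81 distal regions (7.16%) in both libraries of pair A, 79 (6.98%) in both KO libraries and 1039 (91.8%) in neither KO library. Shares over all regions were not counted in that setting, so these are not read as a trait of distal regions. The share difference from all other regions was −1.01 (p = 0.156, exact permutation) at 100000 bp, 0.239 (p = 0.234, exact) at 25000 bp and −0.639 (p = 0.125, exact) with group means as units. The group means and both ways of leaving out low-fold regions were chosen after seeing the data; with the latter, 7 distal regions were called in both 4 h libraries. With pair A as control, 0 distal regions lacked a KO call.

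Leaving out 1 library at a time moved the calls in both libraries over 83 to 131 at RT, 163 to 240 in pair A, 11 to 35 at 4 h and 752 to 863 in KO, the share difference over −0.731 to −0.201, the percentile difference over −8.99 to −5.37 on the 8 lists and the count without a KO call over 158 to 468. Without library 1 or library 2 of pair B the set itself grew, to 1579 or 1350 distal regions. The cause of these shifts was not tested, apart from fewer libraries having to agree. The stricter overlap and the summit position left these counts within 1.5 times of the values given. Lists of equal length could not change the number of distal regions, which is set by the full lists. No paired analysis was possible because the counts come from no test and the class differences are already taken within each library. Without counts, no depth limit can be given for a missing call.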

Other observations

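The largest apparent rise in KO was at a region between Ly86 and Rreb1 (chr13:37477708-37478073), with folds of 4.38 and 3.77 in pair B and 39.8 and 32.4 in KO. The same KO folds were listed at the adjoining region chr13:37475836-37477432, where pair B had 42.8 and 54.8, since in each KO list 1 peak spans both regions and its summit lies outside the smaller one. A merged region can thus take the fold of its neighbour, which happened at 3 of 863 calls in KO library 1 and 6 of 863 in KO library 2, and at 0 of the calls in the other 6 libraries outside pair B.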
